A study of Mus musculus with 8 samples.

Results

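The genes described here are 46 named components of protein folding, translocation and quality control in the endoplasmic reticulum (ER), including the sensors of the unfolded protein response. They were chosen by name, as the rows of the HSC bulk RNA-seq count table whose gene symbol is on that list. The rule itself uses no measured value, but the list was drawn up with earlier results of these data known. All 46 were found among the 15576 genes of the table, and all 46 had enough counts to be tested. They comprise 8 chaperones of the ER lumen, calreticulin and calnexin, 5 disulfide isomerases, 3 stress sensors with the transcription factor Xbp1, 7 genes of ER-associated degradation, 18 subunits of the machinery that takes a nascent protein into the ER and processes it there, and 2 lysyl hydroxylases.

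Secreted and membrane proteins enter the ER through the SEC61 channel while they are being made, lose their signal peptide to signal peptidase and receive N-linked sugars from the oligosaccharyltransferase. Chaperones such as BiP (Hspa5) and GRP94 (Hsp90b1) hold the chain while disulfide isomerases form and rearrange its disulfide bonds, and the lectins calreticulin and calnexin retain glycoproteins until they are folded. Chains that fail are sent back to the cytosol for degradation. The sensors IRE1 (Ern1), PERK (Eif2ak3) and ATF6 respond to unfolded protein by splicing Xbp1 mRNA, by slowing translation and by releasing a transcription factor, and the transcription factors so produced raise the genes of the folding and degradation machinery. In the blood system this machinery is known for its high level in cells that secrete or store much protein, such as plasma cells and maturing granulocytes.

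RNA was sequenced from bone marrow cells of BCR-ABL x SCL-tTA double transgenic mice on a C57BL/6 background, a model of chronic myeloid leukemia (CML). In this model the tetracycline transactivator is driven by regulatory sequence of SCL, a gene of stem and progenitor cells, and BCR-ABL is expressed there once tetracycline is withdrawn. Both groups carried both transgenes, so neither is a normal control. The CML group (4 libraries, numbered 1, 2, 3 and 5) was untreated, and the CML-TKI group (4 libraries, numbered 1 to 4) received imatinib, the inhibitor of the ABL kinase, by gavage at 400 mg/kg on alternate days for 4 weeks as labelled, although the study itself gives a lower dose for this RNA-seq. The age of the mice, and whether each library came from its own animal, were not given in the sources used here, so all p-values measure only the spread between these libraries. The study set out to compare drug-persistent with untreated leukemic stem cells, and the cells are called here only by their group, since the labelled gate of both groups, and the RNA of CD150 and CD48 in CML-TKI, differ from how the study describes that population.

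Libraries held between 1041552 counts (CML-TKI 3) and 8620101 counts (CML 5). Levels are given in CPM (reads scaled to a common library total, with TMM scaling factors), always in the order CML 1, 2, 3 and 5, then CML-TKI 1, 2, 3 and 4. The ribosomal RNA gene Rn45s took 20.2 to 38.3% of the counts in CML and 9.23 to 22.5% in CML-TKI. CML 1, 2 and 3 differed from each other beyond sampling noise (chi-square per degree of freedom 3.56 to 4.79) but far less than any of them differed from CML 5 (51.3 to 55.3) or than the CML-TKI libraries differed among themselves (23.9 to 60.6). On the first principal component, which held 52.5% of the variance, the CML libraries lay between -74.4 and -69.3, CML-TKI 1 at -19.2 and the other CML-TKI libraries between 70.1 and 118.8.

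The labelled gate, Lin-Sca1+cKit+Flt3-CD150-CD48+, was the same for all 8 libraries, whereas the study elsewhere describes its leukemic stem cells as CD48-negative and CD150-positive. At the RNA level the groups stood apart on Slamf1, Cd48 and Kit, and overlapped on Ly6a and Flt3. Slamf1, which encodes CD150, read 37.7, 31.5, 31.3 and 29.01 CPM in CML against 4.56, 0.62, 6.58 and 1.56 CPM in CML-TKI, and Cd48 read 6.40, 5.79, 3.86 and 4.12 CPM against 39.9, 178, 97.5 and 97.6 CPM. Kit, the receptor used as cKit in the gate, fell from 938 ± 119.6 CPM in CML to 248 ± 44.2 CPM in CML-TKI (SD, n = 4 each, adjusted p = 8.70e-04 by edgeR). Ly6a, which encodes Sca1, read 33.2 to 38.5 CPM in CML and 44.3, 9.61, 8.77 and 1.56 CPM in CML-TKI, and Flt3 read 15.7 to 17.2 CPM against 13.7, 7.75, 18.6 and 63.2 CPM, neither of which edgeR called. The summed level of 13 granulocyte genes was 164 to 272 CPM in CML, 1506 CPM in CML-TKI 1 and 8130 to 8643 CPM in the other CML-TKI libraries, and 12 of the 13 were called higher. The 8 monocyte and macrophage genes summed to 12.1 to 26.9 CPM in CML and 496 to 2352 CPM in CML-TKI, all 8 called higher. The 10 stem cell genes summed to 1126 to 1417 CPM in CML and 26.96 to 389.6 CPM in CML-TKI, with 4 called lower, and the megakaryocyte genes summed to 1202 to 1446 CPM in CML and 48.7 to 584 CPM in CML-TKI, with 2 called lower. None of the granulocyte or monocyte genes was at 0 throughout a group, and the part of these shifts in the results below was not tested. In bulk RNA, more cells of a type that makes much ER protein and more ER transcript per cell cannot be told apart.

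Of the 46 ER genes, 20 rose in CML-TKI and 26 did not pass the test. Tested by the quasi-likelihood method of edgeR, with p-values adjusted over 11937 genes (Benjamini-Hochberg), 43.5% of the 46 rose past an adjusted p of 0.05, where 6.29% of all genes tested did so. None of the 46 was called lower, where 3.93% of all genes were, and 10.2% of all genes were called in either direction. None was lower at an unadjusted p under 0.05 either, and DESeq2 and limma-voom also called 0 lower. The log2 fold change was positive for 45 of the 46 and marginally negative for Ern1 alone, whereas all genes split into 5967 positive and 5970 negative. In 28 of the 46 every CML-TKI library lay above every CML library, and in none did every CML-TKI library lie below, against 10.3% and 13.1% of all genes, or 23.4% in either direction. The median log2 fold change of the 46 was 0.84, beside -0.00 over all genes. These genes are abundant ones, with a median expression percentile of 84.25, but among the 5969 genes above the median level the share called higher was 6.67% and the median log2 fold change 0.08.

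Together the 46 genes took 0.749 ± 0.018% (SD, n = 4) of the counts other than Rn45s in CML and 1.41 ± 0.236% (SD, n = 4) in CML-TKI. The lowest CML-TKI library, CML-TKI 3 at 1.22%, stood above the highest CML library, CML 2 at 0.769%. The median log2 CPM of the 46 was 6.09, 6.14, 6.09 and 6.27 in CML and 6.99, 7.33, 7.28 and 6.97 in CML-TKI, so every CML-TKI library was above every CML library. Of the 20 calls, 12 held in each of 8 fits that left out 1 library. The calls rest on counting CML 1, 2 and 3 as separate samples: with those 3 summed into 1, only Plod3 of the 46 passed the threshold, with 122 genes passing among all tested, while their median log2 fold change was 0.80.

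**Figure D1:**
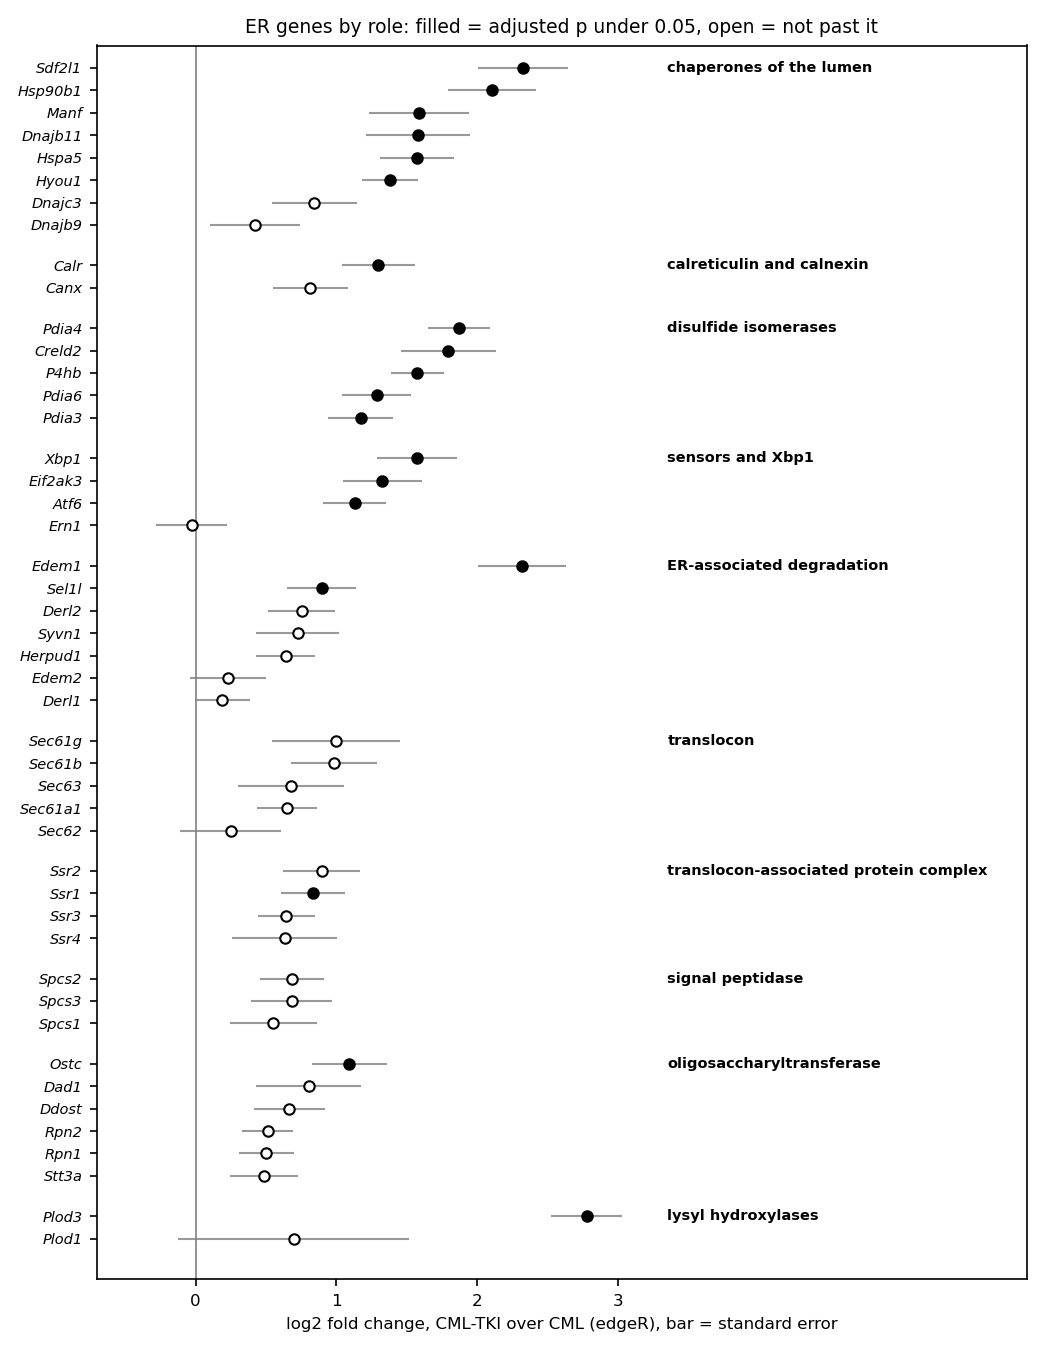
Log2 fold change (CML-TKI over CML) of each of the 46 genes, in rows grouped by role, with the standard error as a bar. Filled points mark the 20 genes with an adjusted p under 0.05 and open points the 26 without. Most points lie to the right of 0, with Plod3, Sdf2l1, Edem1 and Hsp90b1 furthest, and Ern1 lies at 0.

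By role, the differences were larger among the folding genes than among the genes of entry into the ER. The 15 chaperones, lectins and disulfide isomerases had a median log2 fold change of 1.57 and 12 were called higher, while the 18 subunits of the translocon, the translocon-associated (TRAP) complex, signal peptidase and the oligosaccharyltransferase had a median of 0.67 and 2 were called. The difference between the roles was not tested. The folding genes took 0.307 ± 0.034% of the counts in CML and 0.719 ± 0.152% in CML-TKI, and the 18 entry and processing subunits took 0.330 ± 0.025% and 0.470 ± 0.070% (SD, n = 4 each).

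**Figure D2:**
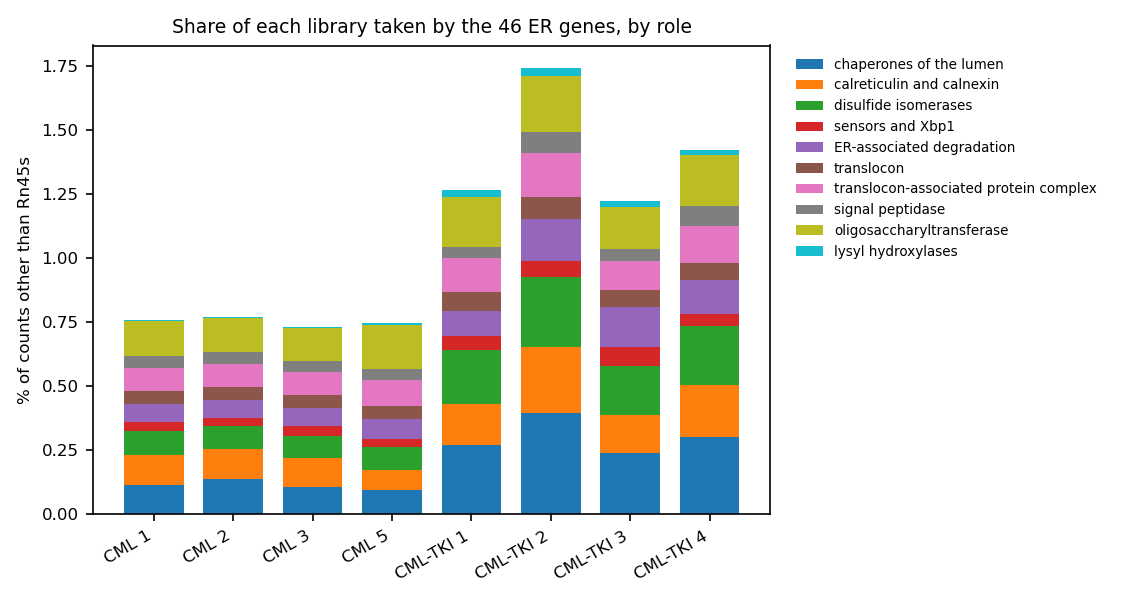
Percent of the counts other than Rn45s taken by the 46 genes in each of the 8 libraries, as bars stacked by role (colours). The CML bars end between 0.728% and 0.769% and the CML-TKI bars between 1.22% and 1.74%, and the chaperone segment grows from a mean of 0.112% to 0.300%.

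Many genes of this machinery carry the ER stress response element (ERSE) near their start, the sequence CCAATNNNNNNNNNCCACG at which ATF6 and XBP1 act together with NF-Y. It was defined on promoters of this very family, so a match is not independent of how the genes are known. RefSeq promoter windows (GRCm38.p6, 250 bases before to 50 after the start) existed for 38 of the 46 genes, and 8 of the 38 (21.1%) held the ERSE on either strand, against 0.119% of all 32851 windows and 0.168% of 9507 tested genes with a window. The stretches are shown because they mark out the genes compared further below. Each is written on the strand of its gene, with the ERSE in capitals, and reads CGTGG first where the element lies on the opposite strand.
Hspa5, chr2:34772015-34772053: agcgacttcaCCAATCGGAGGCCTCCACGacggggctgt
Hsp90b1 (distal), chr10:86705628-86705666: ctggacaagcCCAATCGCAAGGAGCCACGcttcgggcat
Hsp90b1 (proximal), chr10:86705523-86705561: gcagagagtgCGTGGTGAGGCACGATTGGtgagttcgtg
Calr, chr8:84847065-84847103: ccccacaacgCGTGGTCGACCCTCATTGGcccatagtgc
Canx, chr11:50325790-50325828: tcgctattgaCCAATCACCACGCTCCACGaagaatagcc
Pdia6, chr12:17266481-17266519: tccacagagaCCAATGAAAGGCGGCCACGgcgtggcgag
Creld2, chr15:88819510-88819548: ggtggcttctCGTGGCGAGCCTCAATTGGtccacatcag
Dnajc3, chr14:118937817-118937855: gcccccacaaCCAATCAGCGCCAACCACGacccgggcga
Syvn1, chr19:6046522-6046560: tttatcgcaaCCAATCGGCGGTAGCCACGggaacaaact

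Only exact matches to these letters were counted, so near matches, as in the window of Hspa5, count as none here and in the comparison below. Hsp90b1 alone of these held an exact match more than once. The distances from the gene start to the match ran from -44 bases (Syvn1) to -212 bases (distal copy of Hsp90b1). The shorter ERSE-II, ATTGGNCCACG, was in the windows of Dnajb11 and Herpud1, 5.26% of the 38 genes against 0.0841% of tested genes with a window (0.0365% of all windows). It is shown for Herpud1, in capitals, because that gene is a standard marker of the response.
Herpud1, chr8:94386367-94386397: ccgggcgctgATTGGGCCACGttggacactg
The letters TGACGTGG, the core of the unfolded protein response element, were in no window of the 38 genes and in 0.676% of all windows. CCACG by itself, which is contained in both ERSE forms, was in 76.3% of the 38 and in 52.1% of tested genes with a window.

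Chaperones of the lumen were the role with the most genes, and 6 of the 8 rose. Hspa5 (chromosome 2, 34772090 to 34776529 in GRCm38, as are all gene positions below) encodes BiP, the Hsp70 chaperone that also holds the 3 sensors inactive. It read 334, 411, 285 and 224 CPM in CML and 776, 1287, 795 and 867 CPM in CML-TKI, with means of 313 ± 79.0 and 931 ± 240.3 CPM (SD, n = 4 each). Its lowest CML-TKI library was well above its highest CML library, and the difference was 2.97-fold (log2 fold change 1.57 ± 0.26 SE, adjusted p = 0.00581). Hsp90b1 (chromosome 10, 86690841 to 86705444), the Hsp90 chaperone of the lumen, read 166, 199.6, 165 and 77.0 CPM against 664, 840.5, 495 and 610.3 CPM, a 4.30-fold rise (2.10 ± 0.31, adjusted p = 0.00331). Hyou1 (chromosome 9, 44379490 to 44392369), a large Hsp70 relative that exchanges nucleotide on BiP, read 191, 210.2, 178 and 213 CPM against 456, 641, 433 and 531 CPM, 2.604-fold higher (1.38 ± 0.20, adjusted p = 0.00294). For Hspa5 and Hsp90b1 the lowest CML value was in CML 5, whereas Hyou1 was nearly level across CML.

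Sdf2l1 (chromosome 16, 17130138 to 17132383), a partner of the BiP cochaperones, had the largest fold change of the chaperones at 5.01 (2.32 ± 0.32, adjusted p = 0.00232). It read 9.94, 11.8, 10.4 and 16.5 CPM in CML and 36.5, 78.4, 64.7 and 65.0 CPM in CML-TKI, so the groups lay far apart at a low level. Manf (chromosome 9, 106888753 to 106891938), a secreted and ER-resident protein that binds BiP, read 22.3, 27.6, 18.2 and 36.3 CPM against 56.4, 131, 53.7 and 71.8 CPM (1.59 ± 0.36, adjusted p = 0.0210). Dnajb11 (chromosome 16, 22857845 to 22879634), a J-domain cochaperone of BiP, read 11.98, 20.7, 11.2 and 22.5 CPM against 29.1, 70.7, 50.4 and 48.6 CPM (1.58 ± 0.37, adjusted p = 0.0249). The groups of neither gene overlapped, but both calls were lost when a CML library was left out (adjusted p up to 0.0784 for Manf without CML 1 and 0.0903 for Dnajb11 without CML 1), and that of Dnajb11 also without CML-TKI 2 (0.0652).

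The remaining chaperones are the J-domain cochaperones Dnajc3 and Dnajb9, and neither passed the threshold. Dnajc3 (chromosome 14, 118937932 to 118981702), which also restrains PERK, read 114, 123, 101 and 54.4 CPM in CML and 125, 236, 151 and 192 CPM in CML-TKI. Its groups were separate by a narrow margin, 123 CPM in CML 2 against 125 CPM in CML-TKI 1, and its log2 fold change was 0.84 ± 0.30 (adjusted p = 0.109). Dnajb9, a cochaperone that keeps IRE1 off, read 28.6 to 35.3 CPM in CML and 22.2 to 58.1 CPM in CML-TKI, with CML-TKI 1 below every CML library (0.42 ± 0.32, adjusted p = 0.448).

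Of the lectins and the disulfide isomerases, 6 of 7 rose. Calr (chromosome 8, 84842088 to 84846931), the soluble lectin and calcium store calreticulin, read 293, 270.2, 287 and 266 CPM in CML and 423, 955, 576 and 791 CPM in CML-TKI. The CML values were nearly level at 279 ± 13.1 CPM while those of CML-TKI spread widely at 686 ± 234 CPM (SD, n = 4 each), and the rise was 2.46-fold (1.30 ± 0.26, adjusted p = 0.0131). Its adjusted p was 0.0518, 0.0558 and 0.0505 without CML 1, 2 or 3. Canx (chromosome 11, 50293957 to 50325673), the membrane-bound lectin, read 598, 619.8, 561 and 315 CPM against 851, 1228, 745 and 858 CPM. Its groups did not overlap either, but the difference of 0.82 ± 0.27 did not pass the threshold (adjusted p = 0.0826).

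All 5 disulfide isomerases rose, and in each the groups did not overlap. P4hb (chromosome 11, 120560298 to 120573253), protein disulfide isomerase itself and a subunit of collagen prolyl hydroxylase, read 347, 338, 346 and 334 CPM in CML and 1037, 1242, 850.5 and 934 CPM in CML-TKI. Its CML libraries lay close together, at 341 ± 6.26 CPM, and the mean in CML-TKI was 1016 ± 169 CPM (SD, n = 4 each), 2.98-fold higher (1.57 ± 0.19, adjusted p = 0.00126). Pdia4 (chromosome 6, 47796141 to 47813512), an isomerase found with BiP and Hsp90b1, read 65.8, 71.2, 54.9 and 66.8 CPM against 201, 313, 203 and 228 CPM, a 3.65-fold rise (1.87 ± 0.22, adjusted p = 0.00111).

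Pdia3 (chromosome 2, 121413902 to 121438687), the isomerase that works on glycoproteins bound to calnexin and calreticulin, read 197, 183, 182 and 134 CPM in CML and 275, 470.4, 434 and 389 CPM in CML-TKI (1.17 ± 0.23, adjusted p = 0.0120). Pdia6 (chromosome 12, 17266589 to 17284785), which also attenuates the sensors, read 83.5, 89.4, 77.7 and 108 CPM against 151, 281, 183 and 257 CPM (1.28 ± 0.25, adjusted p = 0.0112). In both genes CML-TKI 1 was the lowest of its group, and the adjusted p of Pdia6 was 0.0520 without CML 1 and 0.0509 without CML 3. Creld2 (chromosome 15, 88819646 to 88826681), a stress-induced protein with isomerase activity, was the least abundant of the 5 at 8.58, 9.26, 5.02 and 9.76 CPM against 31.1, 25.7, 25.2 and 31.2 CPM (1.79 ± 0.34, adjusted p = 0.0102). In Creld2, CML-TKI 1 was as high as CML-TKI 4.

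**Figure D3:**
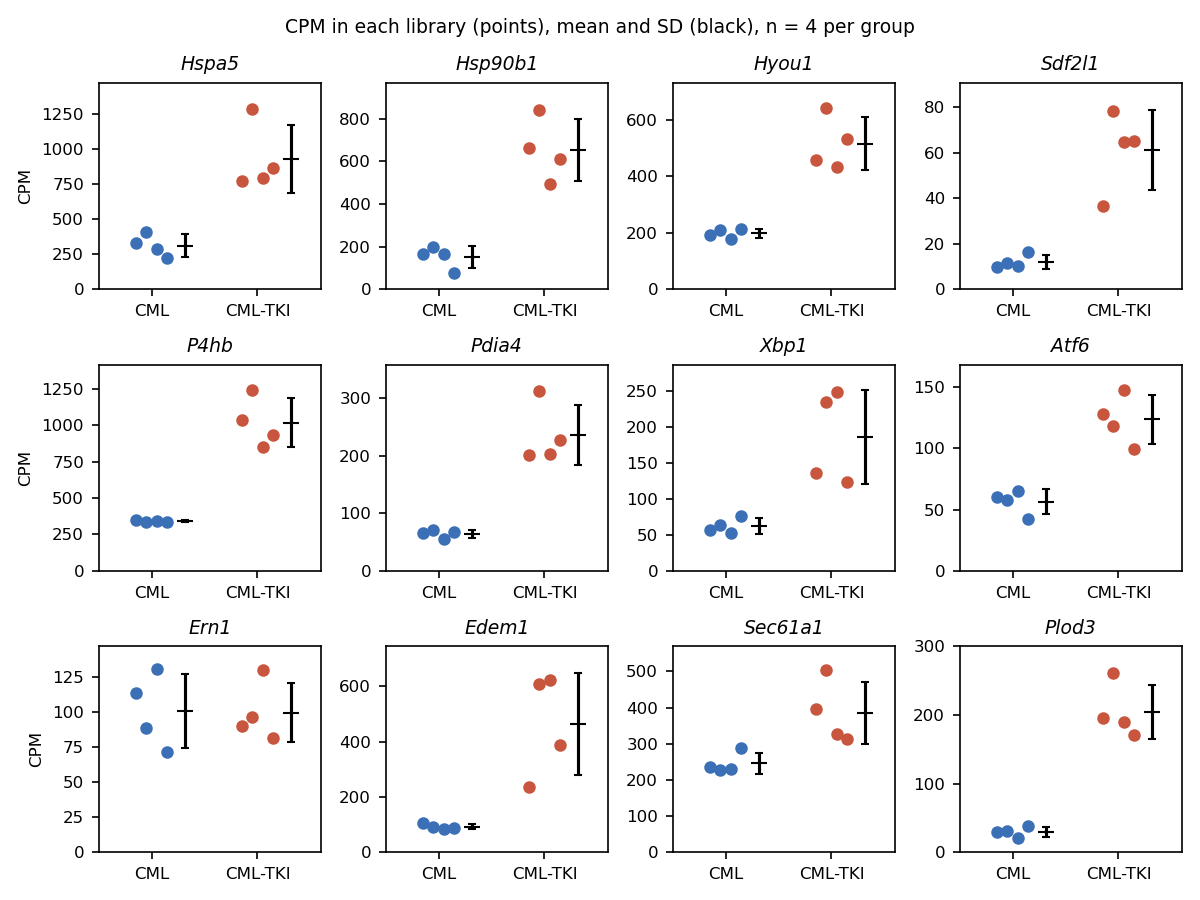
CPM of 12 selected genes in every library (points, in the order of library number), with the group mean and SD (n = 4) in black and an axis from 0 in each panel. The groups are separate for Hspa5 (224 to 411 against 776 to 1287 CPM) and overlap for Ern1 (71.4 to 131 against 81.4 to 130.4 CPM).

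Among the sensors, the transcripts of PERK and ATF6 rose with that of Xbp1 while that of IRE1 did not pass the test. Xbp1 (chromosome 11, 5520641 to 5525993) read 57.1, 63.9, 52.0 and 76.3 CPM in CML and 136, 234, 249 and 124 CPM in CML-TKI, from 62.3 ± 10.5 to 186 ± 65.0 CPM (SD, n = 4 each), a 2.97-fold rise (1.57 ± 0.28, adjusted p = 0.00847). The table counts genes, so the spliced and unspliced forms of Xbp1 mRNA were not separated. Eif2ak3 (chromosome 6, 70844484 to 70905241), the PERK kinase, read 43.3, 34.0, 40.8 and 26.3 CPM against 72.9, 68.2, 130.4 and 92.6 CPM, 2.51-fold higher (1.33 ± 0.28, adjusted p = 0.0161, and 0.0620 without CML 2). Atf6 (chromosome 1, 170704457 to 170868585) read 60.5, 57.7, 65.5 and 42.2 CPM against 128, 119, 148 and 99.9 CPM, 2.19-fold higher (1.13 ± 0.22, adjusted p = 0.0119). For each of these genes every CML-TKI library stood above every CML library.

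Ern1 (chromosome 11, 106397620 to 106487796) read 114, 89.0, 131 and 71.4 CPM in CML and 90.6, 97.0, 130.4 and 81.4 CPM in CML-TKI. The groups covered the same range, with means of 101 ± 26.4 and 99.9 ± 21.4 CPM (SD, n = 4 each) and a log2 fold change of -0.03 ± 0.25 (adjusted p = 0.962), and the sign of this difference turned when single libraries were left out. Per kilobase of transcript, levels in CML were 14.6 CPM per kb for Ern1, 13.3 for Eif2ak3 and 7.79 for Atf6, and in CML-TKI 14.4, 33.5 and 17.1 CPM per kb. Ern1 thus went from the highest to the lowest mean of the 3 sensors on that scale, although the means of Ern1 and Eif2ak3 in CML, and those of Ern1 and Atf6 in CML-TKI, were closer than their spread.

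In ER-associated degradation 2 of 7 genes rose. Edem1 (chromosome 6, 108824045 to 108859356), a mannosidase-like protein that marks misfolded glycoproteins for disposal, read 105, 92.6, 84.8 and 89.8 CPM in CML and 238, 607, 625 and 390.0 CPM in CML-TKI. Its CML libraries lay close together at 93.1 ± 8.65 CPM and its CML-TKI libraries spread over 465 ± 185 CPM (SD, n = 4 each), with CML-TKI 1 the lowest, and the rise was 4.98-fold (2.32 ± 0.31, adjusted p = 0.00211). Sel1l (chromosome 12, 91806043 to 91849157), the adaptor of the ubiquitin ligase Syvn1, read 138, 147, 134 and 90.2 CPM against 162, 244, 290.4 and 251 CPM (0.89 ± 0.25, adjusted p = 0.0484). That call was lost without any single library other than CML-TKI 1, with an adjusted p of up to 0.125.

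Herpud1 and Derl2 were separate between the groups without passing the threshold. Herpud1 (chromosome 8, 94386429 to 94395371), a stress-induced organizer of the ligase complex, read 71.6, 69.1, 73.8 and 92.2 CPM in CML and 94.0, 135, 113 and 136 CPM in CML-TKI (0.64 ± 0.21, adjusted p = 0.0825). Derl2 (chromosome 11, 71007440 to 71019841), a membrane protein of the exit channel, read 29.1, 30.5, 29.2 and 38.2 CPM against 50.5, 59.2, 62.5 and 42.7 CPM (0.75 ± 0.24, adjusted p = 0.0746). In both genes CML 5 was the CML library nearest to the CML-TKI group. Syvn1, the ligase itself, had a log2 fold change of 0.73 (adjusted p = 0.153), and the values were 0.23 (0.637) for the mannosidase-like Edem2 and 0.19 (0.588) for Derl1, a relative of Derl2.

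The translocon held no call among its 5 genes by edgeR (2 at an unadjusted p under 0.05, 2 by DESeq2 and 3 by limma-voom). Among all genes tested, DESeq2 called 9.67% higher and limma-voom 10.5%. Sec61a1 (chromosome 6, 88503607 to 88518800), the pore subunit, read 237, 229, 230.2 and 289 CPM in CML and 395, 504, 327 and 314 CPM in CML-TKI, which did not overlap (0.65 ± 0.21, adjusted p = 0.0865). The small subunits Sec61b and Sec61g had log2 fold changes of 0.98 (adjusted p = 0.0705) and 0.997 (0.198), and overlapped between the groups. Sec63 and Sec62, the accessory subunits for post-translational import, had 0.68 (0.291) and 0.25 (0.717). In both of the latter CML 5 was far below the other CML libraries, at 21.6 against 64.4 to 67.1 CPM for Sec63 and 19.9 against 56.7 to 65.4 CPM for Sec62.

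In the TRAP complex, which sits beside the channel, 1 of 4 genes rose. Ssr1 (chromosome 13, 37971401 to 37994208) read 322, 324, 338 and 280.2 CPM in CML and 424, 737, 447 and 645 CPM in CML-TKI (0.83 ± 0.23, adjusted p = 0.0470), a call that was lost without any single library other than CML-TKI 1 or CML-TKI 3. Ssr2 (chromosome 3, 88579608 to 88588420) read 59.9, 60.8, 61.5 and 117 CPM against 119.8, 145, 169 and 123 CPM (0.89 ± 0.27, adjusted p = 0.0664). Ssr3 (chromosome 3, 65379657 to 65392553) was almost constant in CML at 271, 266, 271 and 269 CPM and read 428, 544, 339 and 373 CPM in CML-TKI (0.64 ± 0.20, adjusted p = 0.0727). Neither Ssr2 nor Ssr3 overlapped between the groups, and Ssr4, which did, had 0.63 (0.321).

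Signal peptidase had no call among 3 genes by edgeR (2 at an unadjusted p under 0.05, 1 by DESeq2 and 2 by limma-voom). Spcs3 (chromosome 8, 54520433 to 54529998), its most abundant member per length, read 258, 261, 234 and 199 CPM in CML and 218, 510.4, 305 and 491 CPM in CML-TKI, with CML-TKI 1 inside the CML range (0.68 ± 0.29, adjusted p = 0.165). Spcs2 and Spcs1 had 0.68 (0.0895) and 0.55 (0.299). Of the 6 oligosaccharyltransferase genes edgeR called Ostc alone (4 were higher at an unadjusted p under 0.05, 2 by DESeq2 and 4 by limma-voom). Ostc (chromosome 3, 130695917 to 130709444), a subunit of the form of the enzyme that sits at the translocon, read 44.9, 51.0, 48.3 and 73.0 CPM against 96.7, 125, 159 and 84.3 CPM (1.09 ± 0.27, adjusted p = 0.0300), with the groups apart and CML-TKI 4 the nearest to CML. Its adjusted p was between 0.0526 and 0.108 without CML-TKI 2, CML-TKI 3 or any of CML 1 to 3.

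Rpn2 (chromosome 2, 157279098 to 157326318), the subunit with the most transcript per length in CML and level with Ddost in CML-TKI, read 329, 295, 307 and 329 CPM in CML and 421, 526, 391 and 458 CPM in CML-TKI. It was separate between the groups but 1.43-fold higher only (0.51 ± 0.18, adjusted p = 0.104). Rpn1, Ddost, Dad1 and the catalytic subunit Stt3a had log2 fold changes of 0.50, 0.67, 0.80 and 0.49 and adjusted p-values between 0.128 and 0.247. Across the 18 entry and processing subunits every log2 fold change was positive, from 0.25 (Sec62) to 1.09 (Ostc), and in 6 the groups did not overlap.

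The 2 lysyl hydroxylases, which modify collagen chains and collagen-like domains in the ER, were unlike each other. Plod3 (chromosome 5, 136987019 to 136996646), which also transfers sugars to hydroxylysine, had the largest fold change of all 46 genes. It read 29.3, 30.5, 21.5 and 37.8 CPM in CML and 195, 261, 189.6 and 171 CPM in CML-TKI, from 29.8 ± 6.70 to 204 ± 39.2 CPM (SD, n = 4 each), a 6.85-fold rise (2.78 ± 0.25, adjusted p = 5.41e-04). CML-TKI 1 lay within the range of the other CML-TKI libraries. Plod1 read 8.03, 12.2, 10.8 and 14.2 CPM against 40.6, 22.003, 0 and 8.32 CPM (0.70 ± 0.82, adjusted p = 0.644). The 0 counts in CML-TKI 3, the shallowest library, allow a level of up to 3.29 CPM, the value of 3 counts there, and the spread within CML-TKI was as large as its mean. Genes of stroma and endothelium, including the collagens that these enzymes modify, summed to 82.0 to 957 CPM in CML, and 63.8 to 253 CPM in CML-TKI, and their part in the values of Plod1 and Plod3 was not tested.

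Levels of different genes are compared here per kilobase of transcript. In CML the most abundant of the 46 were Calr (128 CPM per kb), Canx (122), Hspa5 (119.9), P4hb (119), Rpn2 (114) and Ddost (103). In CML-TKI, Hspa5 and P4hb stood at 356 and 355 CPM per kb, ahead of Calr at 314, Hsp90b1 at 231 and Canx at 215, and Rpn2 and Ddost both stood at 163. Hsp90b1, at 53.8 CPM per kb, was below Rpn2 and Ddost in CML and above them in CML-TKI. Plod3 went from 9.07 to 62.2 CPM per kb and Xbp1 from 29.3 to 87.2 CPM per kb.

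The genes whose promoter window held the ERSE differed as follows from those whose window did not. Of the 8 with the element, 5 rose (Hspa5, Hsp90b1, Calr, Pdia6 and Creld2), in 7 the groups did not overlap, and the log2 fold changes ran from 0.73 to 2.10 with a median of 1.29. Of the 30 with a window and no such letters, 11 rose, in 15 the groups did not overlap, and the median was 0.72. The 8 without a window had a median of 0.99. Plod3, Edem1 and Sdf2l1, with no match in their windows, had larger log2 fold changes than any of the 8. The windows of Edem1 (108828391 to 108828690) and Spcs2 lay inside the gene span, so the outermost start of either gene was not searched. The difference between genes with and without the element was not tested. Outside the list, the 8 other tested genes with an ERSE match had log2 fold changes from -0.84 to 0.84, and edgeR called none of them.

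**Figure D4:**
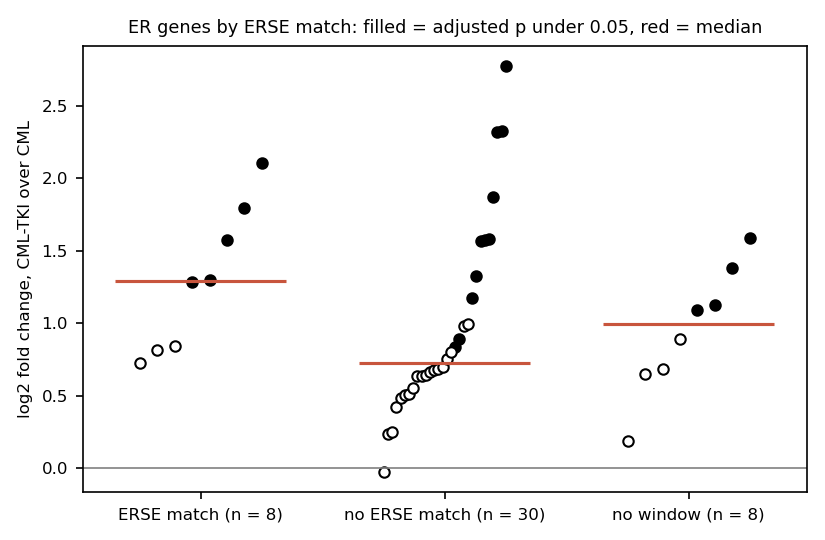
Log2 fold change (CML-TKI over CML) of the 46 genes, split by whether the promoter window held the ERSE letters (8 genes), did not (30) or did not exist (8). Filled points have an adjusted p under 0.05, and red lines mark the medians of 1.29, 0.72 and 0.99.

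Other genes of the same pathways gave a smaller share of calls than the main list, a difference that was not tested. Of 106 further ER genes listed, 92 were tested, and 14 rose (15.2%) and 1 fell (1.09%), with a median log2 fold change of 0.33. Over all genes tested, 6.29% rose and 3.93% fell. Among 28 further folding and glycan-processing genes 9 rose and the median was 0.86, among 27 of translocation and glycan transfer 2 rose (0.28), among 18 of degradation 2 rose (0.27), and among 19 of stress signalling 1 rose and 1 fell (0.21). The folding genes that rose included Uggt1, which reads the folding state of glycoproteins (118 ± 25.3 to 350 ± 39.0 CPM, SD, n = 4 each, adjusted p = 0.00271), Ero1l, the oxidase that supplies disulfides (1.68 on the log2 scale, adjusted p = 0.00499), and P4ha1, the catalytic partner of P4hb in collagen prolyl hydroxylase (14.1 ± 3.76 to 47.8 ± 15.8 CPM, adjusted p = 0.0106). Ero1lb, Erp29, Tor1a, Txndc5, Magt1, Selenos, Edem3 and Map3k5 also rose, with log2 fold changes from 1.07 to 1.73 and adjusted p-values from 0.0193 to 0.0391, as did 3 genes with smaller changes.

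The gene that fell was Ppp1r15a, which encodes GADD34, the phosphatase subunit that reverses the translation block set by PERK. It read 130.5, 117.7, 156.5 and 194.1 CPM in CML and 19.8, 7.44, 17.5 and 15.6 CPM in CML-TKI, 9.97-fold lower in CML-TKI (-3.32 ± 0.34, adjusted p = 7.82e-04). Every CML-TKI library was far below every CML library, the opposite of the 28 separate genes of the main list. Genes downstream of PERK named here after their values were seen did not pass the test: the transcription factors Atf4 (0.13, adjusted p = 0.854) and Ddit3 (1.01, 0.331), and the asparagine synthetase gene Asns (0.92, 0.349). Atf4 and Asns were both highest in CML-TKI 1, and the other CML-TKI libraries did not share a rise. Atf4 read 105 to 158 CPM in CML and 245, 125, 77.8 and 93.4 CPM in CML-TKI. Asns read 39.0 to 48.6 CPM against 195, 24.8, 30.7 and 66.1 CPM.

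Within CML, library 5 departed from libraries 1 to 3 by transcript length. Spearman's rho between its log2 deviation and the transcript length was -0.73 over the 46 genes and -0.51 over 11258 genes of all kinds, given as a description since all genes share the libraries. The 8 listed genes under 1500 bases were all higher in CML 5, with a median log2 difference of 0.81, and the 8 of 5000 bases or more were all lower, with a median of -0.58. The log2 fold change between the groups had a rho of -0.19 with length over the 46 and 0.05 over all genes. Without CML 5, 21 of the 46 were called higher, beside 4.50% of all genes tested.

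**Figure D5:**
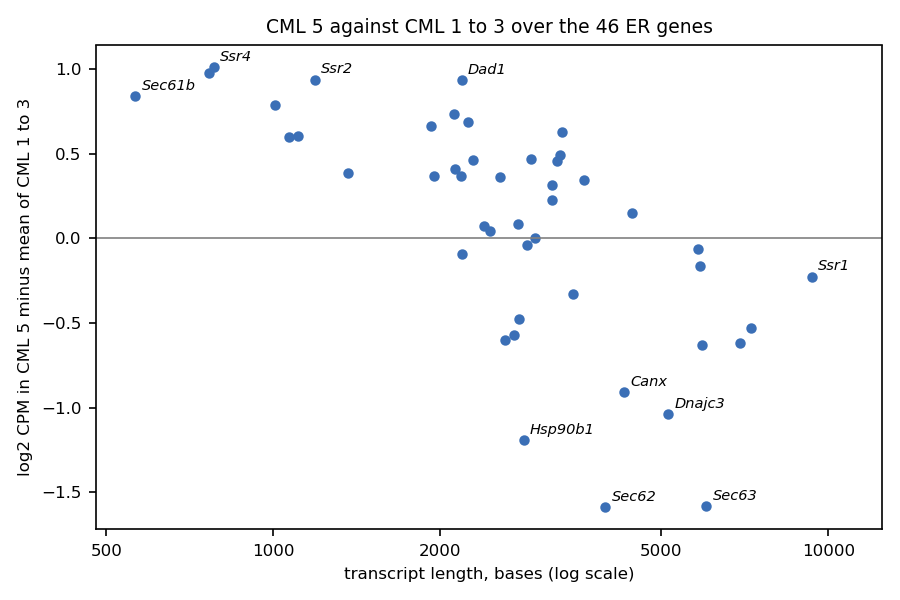
Log2 CPM of CML 5 minus the mean of CML 1 to 3 against transcript length in bases (logarithmic axis), with 1 point for each of the 46 genes. The 8 genes under 1500 bases lie above 0 and the 8 of 5000 bases or more lie below it.

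Markers of other cell types were counted beside these results. The plasma cell and B cell genes summed to 25.1 to 31.3 CPM in CML and 34.1 to 317.8 CPM in CML-TKI, highest in CML-TKI 3. Irf4, a transcription factor of plasma cells that other blood cells also use, was the 1 gene of that list called higher, at 0.41, 0.77, 0.39 and 0.27 CPM in CML and 3.80, 42.8, 39.5 and 2.08 CPM in CML-TKI (adjusted p = 0.0125 by edgeR). Jchain was at 0 in CML-TKI 2 and 4 and at 25.2 CPM in CML-TKI 3, Mzb1 was at 0 in CML-TKI 2 and 3 and at 1.82 CPM or less elsewhere, Prdm1 was at 0 in CML-TKI 2, 3 and 4, and Sdc1 was at 39.9 CPM in CML-TKI 1 and at 13.3 CPM or less elsewhere. The part of these cells in the results was not tested. Mast cell and basophil genes summed to 2.06 to 4.05 CPM in CML and 4.38 to 1164 CPM in CML-TKI, highest in CML-TKI 4. Erythroid genes reached 49580 CPM in CML-TKI 3, against 63.2 to 451 CPM in the other CML-TKI libraries. With CML-TKI 3 left out 19 of the 46 genes were called higher, beside 5.62% of all genes tested, and with CML-TKI 4 left out 18, beside 5.30%. With CML-TKI 1, the library nearest to CML, left out 27 were called higher, beside 9.64% of all genes tested.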

How the data were processed

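The deposited table held estimated counts per gene, not normalized, for 4 CML and 4 CML-TKI libraries. Per the labels and the methods of the study, the authors extracted RNA from sorted bone marrow cells, made Nextera XT libraries, aligned reads with STAR 2.6.1d to mm10 and quantified RefSeq transcripts in Partek Flow (Partek 8.0). The strand setting was not given in the sources used here, so overlapping genes cannot be told apart. Of the values, 8.32 to 22.1% per library were not whole, and all were rounded. The column for CML 5 carries a number that no label gives as such, and it was assigned to the CML group. The labels' description field gives the same column name to several samples (that of number 1 to all 4 CML-TKI samples), so columns were matched by the group and number in the sample titles. No row lacked a gene name, and 20 symbols had been turned into dates and were kept as listed.

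Counts were tested in R 4.3.3 with edgeR 4.0.16 (TMM, robust quasi-likelihood fit, genes passing filterByExpr with a minimum count of 10 and minimum total of 15), with Benjamini-Hochberg adjustment over 11937 genes and a threshold of 0.05, the group being the only term. Each SE was taken from the size of the log2 fold change over √F. On simulated counts for this comparison (11590 genes, 200 changed 8-fold), 91.5% were recovered and 4.19% of calls were false. No gene of the main list changed that much (at most 6.85-fold, Plod3), so the 91.5% does not give the recovery of their smaller changes. Neither value bears on whether CML 1 to 3 count as separate samples. The members, the lists of other genes and the tests were chosen with earlier results of these data known. Values in every library are given for members that passed the threshold or whose groups did not overlap, and for the sensors, Xbp1, Hspa5, Hsp90b1 and Calr. They are also given for the most abundant member per length in each role, by the mean of both groups. From the other ER lists at most 12 genes that passed are named, by size of change. Of these, Ppp1r15a alone is given in every library. A floor of 3 counts was 0.409 to 3.29 CPM, and intervals and floors cover counting error only. Lengths are the median of GENCODE M21 transcripts linked to RefSeq mRNAs. Promoter sequences are from RefSeq (GRCm38.p6). Alternatives were DESeq2 1.42.0, limma-voom (limma 3.58.1), other scalings, no filter, thinning to the smallest total, omission of each library, a replicate block, summing CML 1 to 3 and, chosen after seeing the data, leaving out CML-TKI 1 and 3 together and a fit of the 3 shared numbers without the block.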

Additional observations from a re-analysis of the deposited data

Results flagged for a closer look

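Each of 60 measures was examined for a single library standing away from the rest of its group of 4, and 3 stood out. Independent measures would give that number at 1 in 20, but these share the same libraries, so the chance number does not apply. In all 3, CML 5 was the highest CML library. The gap between CML 5 and the nearest CML library was 0.973 of the whole CML range for Ssr2, 0.865 for Sec61a1 and 0.851 for Derl2, above Dixon's critical value for 4 samples. All are genes whose groups did not overlap and which did not pass the adjusted threshold.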

How the results depend on the processing

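No listed gene was called lower under any alternative. The main count of 1220 genes called became 2157 with DESeq2, 2563 with limma-voom, 504 after thinning to the smallest total, 122 with CML 1 to 3 summed and 505 to 2504 when a single library was left out. The 20 listed genes called higher became 35 with limma-voom, 12 after thinning, 1 with CML 1 to 3 summed and 13 to 27 when a library was left out (13 without CML 1, 2 or 3). The 15 other ER genes called became 23, 2, 1 and 4 to 21 in the same order. With CML-TKI 1 and 3 left out together, chosen after seeing the data, the counts were 3262 genes, 30 listed and 25 other ER genes. Same-numbered libraries did not deviate together (correlations -0.042, 0.097 and 0.093), so the numbers were not taken to pair them. With a replicate block over the 3 shared numbers 193 genes, 6 listed and 2 other ER genes were called, and the listed median was 1.0015, and without the block on the same 6 libraries 589 genes, 15 listed, 6 other ER genes and 1.08. The median of the listed genes stayed between 0.80 and 0.95 under the other alternatives. The log2 fold change of Ern1 turned positive with CML 1 to 3 summed (0.0949), after thinning (0.37) and without CML-TKI 1, CML-TKI 4, CML 1 or CML 3 (range over all 8 omissions -0.17 to 0.11). The cause of these changes was not tested. In CML-TKI 3, the shallowest library, 3 counts equal 3.29 CPM, so a count of 0 there does not show a level below that.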
